A study of Ovis aries with 15 samples.

Results

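Genes of myostatin, activin and bone morphogenetic protein (BMP) signalling were followed in sheep longissimus dorsi, the long back muscle, from fetal life into early postnatal growth. The 10 genes were MSTN, INHBA, BMP4, FST, ACVR1, ACVR2B, BMPR1A, SMAD3, ID1 and ID3, out of 9155 genes that the array annotation names. Every probe set whose only annotated symbol is one of the 10 was taken, which gave 15 probe sets. Of these, 14 passed a filter on low signals and represent all 10 genes, and 5 of the genes had a pair of probe sets. The animals were Dorset/Suffolk/Rambouillet cross-bred sheep with no treatment. The stages were fetuses at 80, 100 and 120 days (d) of gestation, lambs taken within 3 days of birth, called 150 d, and lambs of 12 weeks, called 230 d. Each stage had 3 animals with 1 array each, so 9 arrays were fetal and 6 postnatal. The fetal groups at 100 d and 120 d each held 2 males and 1 female, whereas the other groups were male only, and the labels do not say which animal was female.

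Myostatin and the activins are secreted ligands of the transforming growth factor beta (TGF-beta) superfamily. They bind type II receptors such as ACVR2B, recruit a type I receptor and lead to phosphorylation of SMAD2 and SMAD3, while BMPs act mainly through type I receptors such as ACVR1 and BMPR1A and through SMAD1 and SMAD5, whose targets include the ID genes. Follistatin binds activins and myostatin outside the cell and blocks them. Myostatin is best known as a brake on muscle mass, and animals that lack it are heavily muscled.

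The values are MAS5 signals, the linear intensity summary of Affymetrix arrays, and every array had a trimmed mean of 200. RNA from sheep was hybridised to a bovine array, so a dim probe set can mean low RNA or a mismatched probe. Levels are therefore compared between stages within a probe set, and not between genes. The median signal per array ran from 51.4 to 69.4. The ratio of 3 prime to 5 prime actin signal, a sign of RNA quality, was 0.933 to 2.21 on fetal arrays and 0.852 to 1.04 on postnatal arrays. The median absolute log2 difference between replicate arrays was 0.256 to 0.469, and with 3 arrays a stage this number of arrays limits the precision. Muscle fibre markers were strong throughout, with a summed signal of 70630 to 124000 in fetuses and 145600 to 315200 after birth. Stages were compared with limma on log2 signal, and a change was called at a Benjamini-Hochberg adjusted p under 0.01 over 15981 probe sets.

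MSTN, FST and ACVR1 fell between 120 d and 150 d, the interval that spans birth, and no probe set of the 10 genes was called higher. In total 4 of the 14 probe sets were called lower. Over all probe sets 11.2% were called in this interval, 4.42% higher and 6.78% lower, which is 706 higher and 1083 lower, and this split turned to 1005 higher and 634 lower when the array medians were set equal. On 7 of the 14 all 3 arrays at 150 d lay under the 3 at 120 d, beside 23% of all probe sets. The median log2 change of the 14 probe sets was −0.91, beside −0.15 over all probe sets. With array medians set equal the median over all probe sets was 0.04. With scaling to the hybridisation controls it was −0.79, and changes under that scaling have to be read against that shift. Such a scaling moves all probe sets of an array alike, so the 10 genes moved with it. For example, INHBA went from −1.92 to −2.56 and the dimmer MSTN probe set from −1.18 to −1.82. The arrays measure whole muscle, in which fewer cells of a type and less RNA per cell cannot be told apart.

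**Figure D1:**
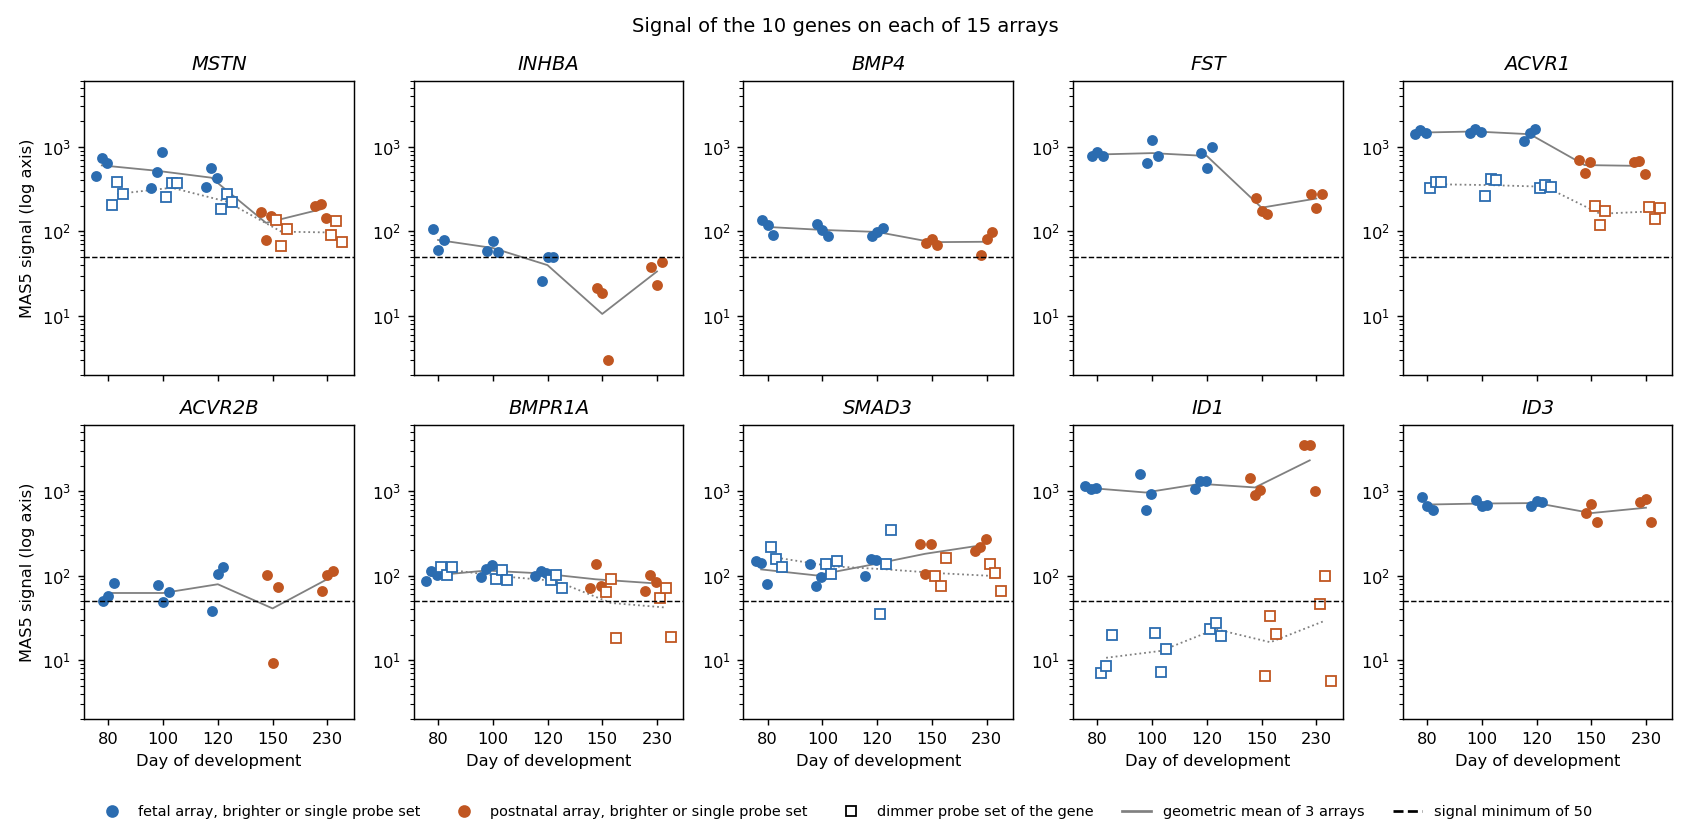
MAS5 signal (log axis) of the 10 genes on each of the 15 arrays by day of development, with fetal arrays in blue and postnatal arrays in orange; open squares are the dimmer probe set, lines join geometric means of 3 arrays, and the dashed line is the signal minimum of 50. The fetal and postnatal arrays stand apart for MSTN, FST and ACVR1 and overlap for the other 7 genes.

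Among the ligands, MSTN, which encodes myostatin, was highest in the fetus. Its brighter probe set read 456.6, 740.9 and 648.9 at 80 d, 326.2, 502.8 and 862.4 at 100 d, and 330.8, 565.5 and 429.2 at 120 d. It read 168.9, 78.1 and 151.6 at 150 d and 197.9, 210.8 and 144.6 at 230 d. Every fetal array was thus above every postnatal one, whereas the 3 fetal stages overlapped each other. From 120 d to 150 d the signal was 3.42-fold lower (95% confidence interval 1.93 to 6.08; log2 change −1.78, SE 0.38, adjusted p = 0.0059). The call did not hold without 120 d replicate 2 (log2 change −1.58, adjusted p = 0.026), 120 d replicate 3 (−1.78, adjusted p = 0.021), 150 d replicate 2 (−1.43, adjusted p = 0.025) or 150 d replicate 3 (−1.91, adjusted p = 0.010). It also did not hold after quantile normalization (log2 change −1.57, adjusted p = 0.012).

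The dimmer MSTN probe set also had every fetal array above every postnatal one but did not pass the test. Its 9 fetal arrays ranged from 182.3 to 380.6 with a median of 275.7, and its 6 postnatal arrays from 67.4 to 135.7 with a median of 98.85. From 120 d to 150 d its log2 change was −1.18 (SE 0.32, adjusted p = 0.020). The drop persisted to 230 d on both probe sets without a call, with log2 changes from 120 d of −1.24 (adjusted p = 0.030) for the brighter and −1.22 (adjusted p = 0.015) for the dimmer.

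INHBA, which encodes the beta A subunit that activin A is built from, was near or under the signal minimum on most arrays. Its signal was 106.4, 59.5 and 78.0 at 80 d, 58.9, 76.6 and 56.9 at 100 d, and 25.8, 49.3 and 49.7 at 120 d. After birth it read 21.1, 18.5 and 3.0 at 150 d and 37.4, 23.1 and 43.6 at 230 d. All arrays from 120 d on were therefore under 50, so no fold is given. The fitted log2 difference from 120 d to 150 d was −1.92 (SE 0.60, adjusted p = 0.037), and that from 150 d to 230 d was 1.67 (SE 0.60, adjusted p = 0.12). Neither passed the test.

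BMP4, a ligand of BMP type I receptors, was not called in any comparison. Its mean signal was 114 ± 22.8 (SD, n = 3) at 80 d and 105 ± 18.2 at 100 d. By 120 d the mean was 98.7 ± 10.7, and after birth it was 74.7 ± 6.37 in newborns and 77.7 ± 22.7 in the older lambs. All 3 arrays at 150 d lay under the 3 at 120 d, but the log2 change of −0.40 (95% confidence interval −0.93 to 0.13, adjusted p = 0.27) was not called.

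FST, which encodes follistatin, was high in the fetus and fell across birth. Its signal was 785.7, 870.1 and 780.0 at 80 d, 637.5, 1203.4 and 779.4 at 100 d, and 846.6, 563.8 and 988.1 at 120 d. It then read 247.0, 173.3 and 161.7 at 150 d and 273.8, 190.7 and 279.9 at 230 d. The lowest fetal array was about 2 times the highest postnatal one. The fetal stage means were 811.9 ± 50.45 (SD, n = 3) at 80 d, 873.4 ± 294.4 at 100 d and 799.5 ± 216 at 120 d. They differed by less than the SD at 100 d or at 120 d. The fall from 120 d to 150 d was 4.08-fold (95% confidence interval 2.66 to 6.27; log2 change −2.03, SE 0.29, adjusted p = 0.00046). At 230 d the signal was still 3.18-fold below 120 d (95% confidence interval 2.08 to 4.89, adjusted p = 0.0012). The inhibitor and its ligand MSTN therefore fell across the same interval, and each was called in it by its brighter or single probe set.

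Of the 3 receptors among the 10 genes, ACVR1, a type I receptor for BMPs, was the one with a called change. Its brighter probe set read 1408.9, 1567.5 and 1450.0 at 80 d, 1447.0, 1616.5 and 1496.7 at 100 d, and 1170.1, 1456.8 and 1642.2 at 120 d. It read 697.5, 486.9 and 661.8 at 150 d and 659.2, 672.6 and 474.5 at 230 d. The 3 fetal stages overlapped each other, as did the 2 postnatal stages, and every postnatal array lay under every fetal one. Its residual SD of 0.22 on the log2 scale was the smallest of the 14 probe sets. The fall from 120 d to 150 d was 2.32-fold (95% confidence interval 1.71 to 3.15; log2 change −1.21, SE 0.20, adjusted p = 0.0014), and at 230 d the signal was 2.37-fold below 120 d (adjusted p = 0.00092).

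The dimmer ACVR1 probe set moved alike, from 322.0, 353.5 and 336.1 at 120 d to 199.2, 119.8 and 176.3 at 150 d. This was a 2.09-fold fall (95% confidence interval 1.46 to 2.99; log2 change −1.06, SE 0.24, adjusted p = 0.0076). Its call was close to the threshold and did not hold without any one of 80 d replicate 1, 2 or 3, 100 d replicate 2 or 3, 120 d replicate 1, 2 or 3, or 150 d replicate 2 or 3. In those fits the log2 change lay between −1.12 and −0.85, and without 150 d replicate 2 the adjusted p was 0.031. The call was also lost with array medians set equal (log2 change −0.87, adjusted p = 0.018).

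ACVR2B and BMPR1A did not pass the test in any interval. ACVR2B, the type II receptor that myostatin and activins bind, was dim and variable, for example 37.9, 104.1 and 124.7 at 120 d and 101.1, 9.2 and 73.4 at 150 d. Its log2 change of −0.95 had a 95% confidence interval of −2.52 to 0.62, so neither a sizeable fall nor a small rise was excluded by the replicates. BMPR1A, a type I receptor for BMPs, had stage means between 82.9 and 116 on its brighter probe set, with a log2 change across birth of −0.23 (95% confidence interval −0.80 to 0.34). On its dimmer probe set the fetal arrays ranged from 72.1 to 127.1 and the postnatal arrays from 18.1 to 91.8, and the log2 change was −0.86 (95% confidence interval −2.05 to 0.33). The difference in fold between ACVR1 and these receptors was not tested.

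SMAD3, which carries the myostatin and activin signal to the nucleus, had 2 probe sets whose fitted changes from 120 d to 150 d and to 230 d differed in sign. The brighter read 99.1, 156.9 and 153.9 at 120 d, 238.6, 105.1 and 237.1 at 150 d, and 195.6, 220.5 and 271.5 at 230 d. The 230 d arrays lay above all 9 fetal arrays, whose highest was 156.9, but the log2 change from 120 d of 0.76 (SE 0.36, adjusted p = 0.14) was not called. It became −0.12 with scaling to the hybridisation controls, which moved the median over all probe sets in this span from −0.06 to −0.95. The dimmer was scattered at 120 d, at 35, 135.3 and 350.7, and its log2 change to 230 d was −0.26 (SE 0.63, adjusted p = 0.79).

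**Figure D2:**
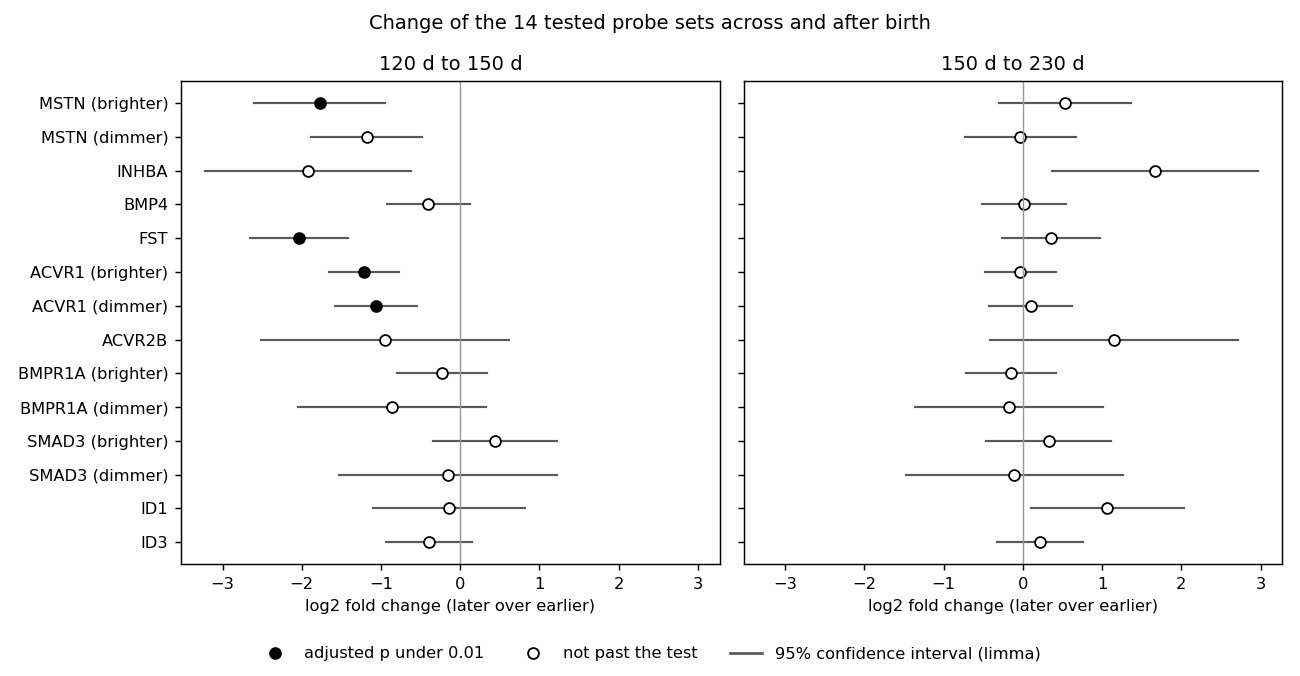
Log2 fold change (later over earlier stage) of the 14 tested probe sets from 120 d to 150 d and from 150 d to 230 d, as points with 95% confidence intervals from limma; filled points had an adjusted p under 0.01. In the first interval 13 of 14 points lie under 0 and 4 are filled, and in the second none is filled.

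The targets ID1 and ID3 encode proteins that bind and inactivate E proteins and so hold back myogenic factors. ID1 read 1132.8, 1048.3 and 1073.4 at 80 d, 1598.0, 604.0 and 920.5 at 100 d, and 1054.8, 1302.5 and 1315.0 at 120 d. It read 1443.0, 892.8 and 1040.9 at 150 d and 3501.3, 3459.2 and 1014.4 at 230 d. At 230 d replicates 1 and 2 were more than 2 times as high as any array of another stage, whereas replicate 3 was within the range of the others. The log2 change from 150 d to 230 d was 1.07 (SE 0.44, adjusted p = 0.18), and without 230 d replicate 3 it was 1.66 (adjusted p = 0.019), not called either way. From 120 d to 230 d it was 0.92 (SE 0.44, adjusted p = 0.15), and without 230 d replicate 3 it was 1.52 and was called (adjusted p = 0.0085). With scaling to the hybridisation controls the change from 120 d to 230 d was 0.03 (adjusted p = 0.95). That scaling moved the median over all probe sets in this span from −0.06 to −0.95. The second ID1 probe set did not pass the filter, with 45.6, 98.2 and 5.6 at 230 d and at most 32.8 on the other arrays.

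ID3 stayed between 598.4 and 843.2 on the fetal arrays and between 430.4 and 801.3 on the postnatal ones. Its log2 change was −0.39 (95% confidence interval −0.94 to 0.15) from 120 d to 150 d and 0.21 (95% confidence interval −0.33 to 0.76) from 150 d to 230 d. At 230 d it read 734.3, 801.3 and 435.4, so replicate 3 was again the lowest.

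That array was examined for the other probe sets, a comparison chosen after its values were seen. On 230 d replicate 3 the signal was at least 1.5-fold below both other 230 d arrays for 4 of the 14 probe sets (ID1, ID3 and the dimmer ones of BMPR1A and SMAD3) and for 10.1% of all probe sets. Of 47 further pathway genes 11 did so, among them ID2, at 519.5, 804.7 and 297.1, and KLF10, an early target of TGF-beta, at 2205.6, 2412.8 and 742.3. Some of the 11 were near or under the signal minimum, such as BMP7 at 27.8, 56 and 10.4 and SOSTDC1 at 3, 2.5 and 0.8. What sets this animal or array apart was not tested.

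**Figure D3:**
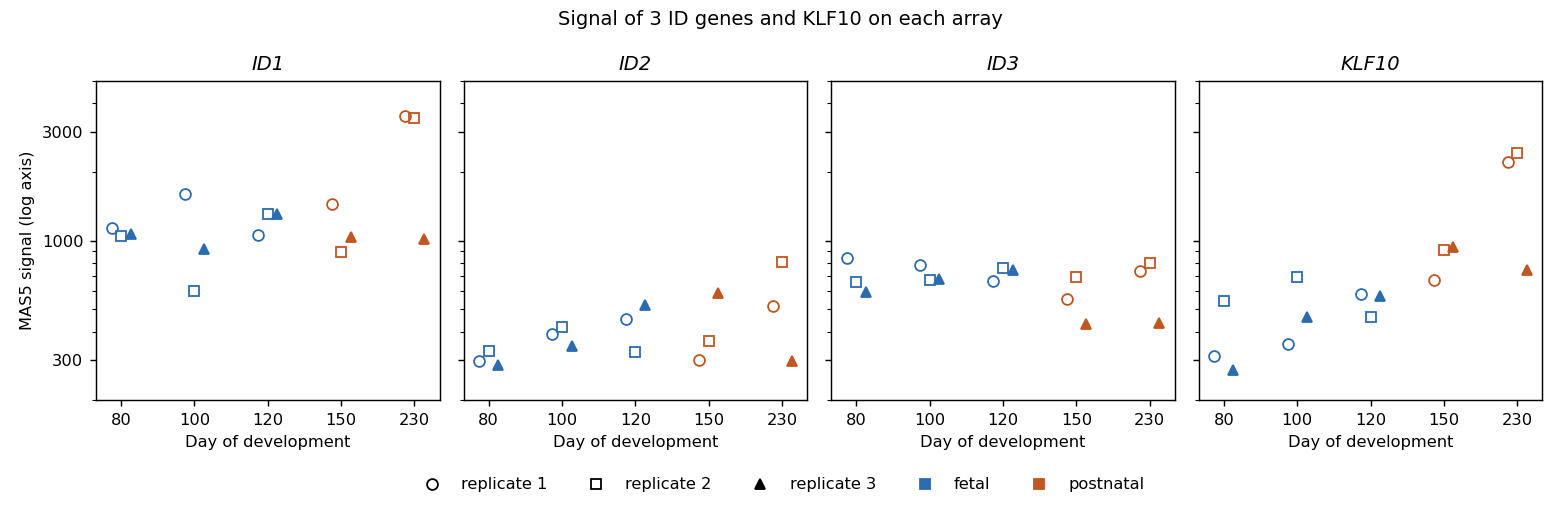
MAS5 signal (log axis) of ID1, ID2, ID3 and KLF10 on each array by day of development, with replicates 1 and 2 as open circles and squares and replicate 3 as filled triangles. At 230 d the replicate 3 array is the lowest in every panel, for example 1014.4 against 3501.3 and 3459.2 for ID1. ID2 and KLF10 were picked after their values were seen. Not all targets were lowest on that array, for example CDKN1C at 2219.6, 2190.8 and 2684.5 on 230 d replicates 1, 2 and 3.

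Between neighbouring stages the interval across birth was the only one with calls among the 10 genes. No probe set was called from 80 d to 100 d (0.125% of all probe sets called) or from 100 d to 120 d (0.0563%), and none had an unadjusted p under 0.05 in these intervals. None was called over the whole fetal span from 80 d to 120 d (1.31% of all probe sets called), where the largest fitted difference was −0.99 on the log2 scale, for INHBA. From 150 d to 230 d none was called (2.03% of all probe sets called) and 2 had an unadjusted p under 0.05, INHBA and ID1. The share of all probe sets under that unadjusted p was not counted. From 120 d to 230 d, a span that shares its 120 d arrays with the interval across birth, FST and the brighter ACVR1 probe set were called lower, 2 of 14, while 14.2% of all probe sets were called and 8.43% were lower. In a moderated F-test over the 4 adjacent intervals both MSTN probe sets, FST and both ACVR1 probe sets passed at 0.01, 5 of 14, beside 25.9% of all probe sets, and INHBA had an adjusted p of 0.011. The same 5 probe sets were those whose 9 fetal arrays all exceeded their 6 postnatal arrays, a count chosen after the values were seen, beside 10.5% of all probe sets.

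For the rest of the pathway, 112 further gene symbols of the TGF-beta superfamily were listed by role. A total of 51 had a probe set and 47 passed the filter, each represented by its brightest probe set. From 120 d to 150 d 8 of 47 were called lower and none was called higher, beside 6.53% lower and 6.73% higher among all named genes taken the same way. The median log2 change was −0.36 over the 47 genes and −0.08 over all named genes. None of 10 ligands was called. By role the calls were 2 of 6 genes that process or store ligands, 1 of 7 inhibitors, 1 of 7 receptors, 2 of 6 SMADs and their regulators, and 2 of 11 targets.

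LTBP1 and FBN1 hold latent TGF-beta in the extracellular matrix, and FBN1 encodes the microfibril protein fibrillin-1. LTBP1 fell from 218 ± 37.8 (SD, n = 3) to 105 ± 21.2, a log2 change of −1.06 (adjusted p = 0.0031). FBN1 fell from 5804 ± 259 to 2931 ± 791, a log2 change of −1.02 (adjusted p = 0.0041). The LTBP1 call was lost without 120 d replicate 1 (adjusted p = 0.013), 120 d replicate 3 (0.017) or 150 d replicate 2 (0.013). The FBN1 call was lost without 120 d replicate 1 (0.014), 2 (0.012) or 3 (0.018) or without 150 d replicate 1 (0.015) or 2 (0.018). It was also lost with array medians set equal (log2 change −0.83, adjusted p = 0.017) and without the filter on low signals (adjusted p = 0.012).

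CRIM1, a membrane protein that binds BMPs, read 621.7, 471.8 and 1297.9 at 120 d and 226.1, 177.2 and 373.9 at 150 d. Its log2 change was −1.56 (SE 0.36, adjusted p = 0.0083). The call was lost in 13 of 15 fits that left out 1 array, all but those without 120 d replicate 2 or 150 d replicate 3, and without 120 d replicate 3 the log2 change was −1.14 (adjusted p = 0.031). It was also lost with array medians set equal (log2 change −1.37, adjusted p = 0.019), after quantile normalization (−1.40, adjusted p = 0.015) and without the filter on low signals (adjusted p = 0.019). A further 3 CRIM1 probe sets passed the filter and had log2 changes of −0.78, −1.23 and −0.96, none called.

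TGFBR2, the type II receptor of TGF-beta, fell 3.51-fold, from 1533, 1314.3 and 1872.1 at 120 d to 444.4, 385.4 and 510.1 at 150 d (log2 change −1.81, SE 0.31, adjusted p = 0.0014). Its second, dimmer probe set had a log2 change of 0.07 (95% confidence interval −1.44 to 1.59). BMPR2, the type II receptor of BMPs, had 2 probe sets with fitted values above 0. The dimmer rose from 69.6 ± 3.04 (SD, n = 3) to 128 ± 32.2 (log2 change 0.85, SE 0.20, adjusted p = 0.0095), and the brighter, which counts for the gene here, had a log2 change of 0.74 (SE 0.28, adjusted p = 0.077).

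SMAD2, which like SMAD3 carries TGF-beta, activin and myostatin signals, fell from 605.4, 420.1 and 623.1 to 250.9, 250.9 and 284.2 (log2 change −1.05, SE 0.19, adjusted p = 0.0019). TGIF1, a repressor that binds SMAD2 and SMAD3, fell from 381.9, 360.4 and 423.3 to 214.3, 150.5 and 139.5 (log2 change −1.23, SE 0.19, adjusted p = 9e-04). Of the targets, CDKN1C, a cell cycle inhibitor, fell 3.46-fold from 7966.4, 5666.2 and 7174.2 to 2290.6, 1491.8 and 2284.3 (log2 change −1.79, SE 0.23, adjusted p = 0.00027). TGFBI, a matrix protein induced by TGF-beta, fell 2.44-fold from 2735.3, 2221.8 and 2679.6 to 1060.7, 1058.4 and 1001.1 (log2 change −1.29, SE 0.23, adjusted p = 0.0021). In all 4 the 150 d arrays lay under the 120 d arrays. Without 120 d replicate 3 the SMAD2 and TGFBI calls were lost, each with an adjusted p of 0.011. Dimmer probe sets of CDKN1C and TGIF1 were not called in this interval. For CDKN1C their log2 changes were −0.88 (adjusted p = 0.54) and −0.64 (adjusted p = 0.50), with overlapping arrays. For TGIF1 the log2 change was −1.37 (adjusted p = 0.023), with the 150 d arrays under the 120 d arrays.

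From 150 d to 230 d 1 of 47 was called, beside 2.31% of all named genes. This was BMPR1B, a type I receptor of BMPs, at 88.2, 94.7 and 125.8 and then 40.0, 56.7 and 38.0 (fitted log2 change −1.20, SE 0.22, adjusted p = 0.0074). The fitted fall was 2.30-fold (95% confidence interval 1.66 to 3.19), but 2 of the 3 arrays at 230 d were under the signal minimum of 50. The geometric mean at 150 d was 2.03-fold above that minimum, which is not a statistical bound on the fall. That call was lost in 13 of 15 fits that left out 1 array, with an adjusted p of at most 0.026 in them; it held without 100 d replicate 1 and without 230 d replicate 2. No gene was called from 80 d to 100 d (0.172% of all named genes called) or from 100 d to 120 d (0.053%). In these intervals 3 and 8 of the 47 had an unadjusted p under 0.05. The share of all named genes that did so was not counted, so these 2 counts are not read as a change.

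**Figure D4:**
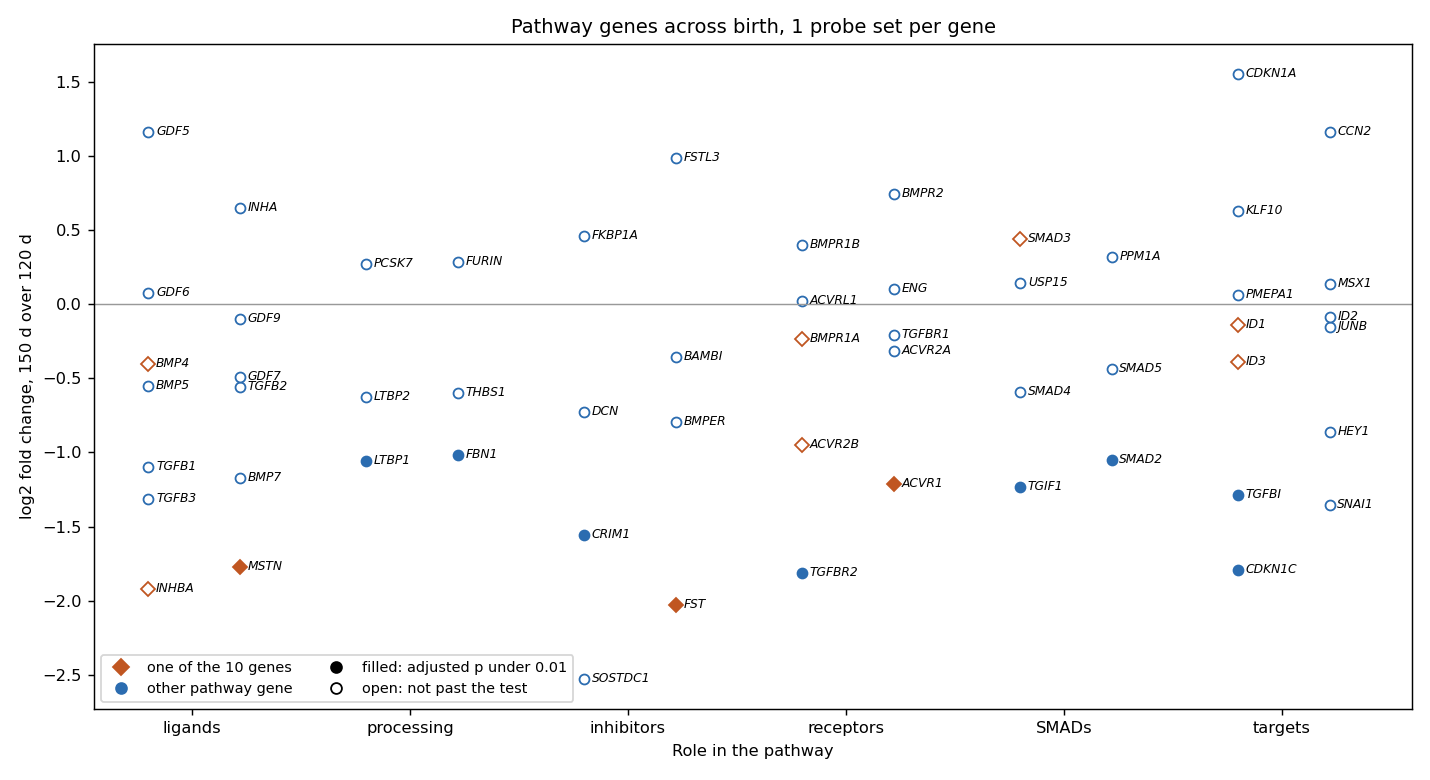
Log2 fold change from 120 d to 150 d of the 10 genes (orange diamonds) and 47 further pathway genes (blue circles), 1 probe set per gene, arranged by role; filled symbols had an adjusted p under 0.01 and text gives the gene. All filled symbols, 3 of the 10 genes and 8 of the 47, lie under 0; genes with dim signals at both stages, such as INHBA and SOSTDC1, are shown at their fitted difference.

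Some markers of the cell types in muscle were also called across birth. Among all named genes, each by 1 probe set, 6.53% were called lower and 6.73% higher in this interval. The lists are short, so a single call in a list is not read as a shift of that cell type. Of 8 endothelial markers 4 were called lower, and their summed signal was 3989 to 7094 on fetal arrays and 2129 to 3871 on postnatal arrays. Of 9 fibroblast and connective tissue markers, a list that also holds FBN1, 3 were called lower, with sums of 50780 to 72200 and 38090 to 66850. Of 5 erythroid markers 3 were called lower, with sums of 12220 to 25970 and 254.8 to 1272. Of 8 muscle fibre markers 3 were called higher. None of 6 myoblast and satellite cell markers was called, although their list sums were 6585 to 9641 on fetal arrays and 11600 to 16270 on postnatal arrays. None of 7 smooth muscle and pericyte markers was called either, with list sums of 8517 to 11770 and 14300 to 21300. Both of these lists hold DES, whose mean was 7589 at 120 d and 11840 at 150 d (adjusted p = 0.022, not called). Of 4 tested adipocyte markers FABP4 was called higher (log2 change 2.69, adjusted p = 0.0036), with list sums of 173.2 to 937 and 555.9 to 1594, while LEP was under 50 on all 15 arrays. Of 5 tested leukocyte markers CD3D was called lower (log2 change −2.13, adjusted p = 0.0065), with list sums of 394 to 561.3 and 368.3 to 846.5, while PTPRC was under 50 on all 15 arrays. Of 2 Schwann cell and nerve markers S100B was called lower (log2 change −1.56, adjusted p = 0.00074), with list sums of 277.2 to 737.6 and 251.3 to 503.8. None of 4 tested markers of dividing cells was called, with list sums of 922 to 2102 and 479.9 to 1452. The part that these marker changes have in the changes of MSTN, FST, ACVR1 and the other pathway genes was not tested.

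The genes whose log2 signal followed each changed gene most closely over the 15 arrays were the following. For MSTN they were ZNF184 (Pearson r = 0.955), COL27A1 (0.954) and CHD1 (0.953). For FST they were VIRMA (0.959), PDCD4 (0.958) and RHOJ (0.956). For ACVR1 they were RAP2C (0.983), CYTH2 (0.980) and MXRA8 (0.974). The 15 points share the step at birth, so these values describe arrays of 5 stages rather than independent samples. Within the 9 fetal arrays r was lower for each, for example 0.747 for MSTN with ZNF184, 0.556 for FST with VIRMA and 0.732 for ACVR1 with RAP2C, and within the 6 postnatal arrays it was 0.847, 0.229 and 0.844 for the same pairs.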

How the data were processed

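Total RNA from the muscle of 15 sheep was hybridised to Affymetrix bovine arrays, 1 array per animal. The authors summarised probes with MAS5 (version not given in the sources used here) and deposited linear signal intensity values, scaled to a trimmed mean of 200 on each array. From these, 112 control probe sets were removed, and 15981 of 24016 probe sets were kept because 3 or more arrays reached 0.25 of the trimmed mean (about 50). No kept value was under the floor of 0.1 set before log2. GEO's platform annotation gave 13292 probe sets 1 gene symbol, 86 several and 10638 none, and a gene was named only from a probe set with 1. A single fit with limma 3.58.1 (lmFit and eBayes, R 4.3.3) used all 15 arrays and 5 stage means, which left 10 residual degrees of freedom, and each comparison was adjusted by Benjamini-Hochberg over the kept probe sets, with calls at 0.01. The test was checked on simulated data with independent normal errors, so that check does not cover shifts in scaling between arrays. Figures were drawn with Python 3.11.15 and matplotlib 3.10.9.

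The 10 genes, the pathway and the marker lists were chosen with earlier results of these data known. All 10 were named, and of the other pathway genes up to 4 per role that were called in an adjacent interval, with the 3 genes most like each called member; ID2, KLF10, BMPR2 and SOSTDC1 were named after their values were seen. Replicates are separate animals, and no 2 arrays held identical values. Alternatives were other scalings, filters, offsets, fits and thresholds, a replicate block and leaving out each array. Gene sequences and coordinates were not used here, and the sex of single animals was not modelled.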

Additional observations from a re-analysis of the deposited data

How the results depend on the processing

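No called change turned its direction under any alternative: of 389 alternative values of 15 called results 309 kept their call and 80 lost it, and of 2022 values of 78 uncalled results 25 gained a call and 81 changed sign without one. The number of called probe sets of the 10 genes from 120 d to 150 d was 4 in the text, beside 11.2% of all probe sets. It was 2 after quantile normalization (9.37% of all probe sets called) and 2 without the filter (4.62%). With only the 6 arrays compared it was 0 (6 at an unadjusted p under 0.05, and 2 calls over all probe sets). With 1 array left out it was 2 to 4 (5.6% to 11.4%). From 120 d to 230 d, 2 in the text, it was 9 with scaling to the hybridisation controls, 4 with a stricter filter, 4 with limma's trend and robust options, 5 at an adjusted p of 0.05, 0 with only the 6 arrays and 2 to 4 with 1 array left out; in the other 4 comparisons it was 0 throughout these alternatives. The number of pathway genes from 120 d to 150 d was 8 in the text, beside 11.2% of all probe sets. It was 15 with scaling to the hybridisation controls (24.7% of all probe sets called). With only the 6 arrays it was 0 (19 at an unadjusted p under 0.05, and 2 calls over all probe sets). With 1 array left out it was 3 (without 120 d replicate 3) to 8, beside 5.6% to 11.4%. The share of all probe sets at an unadjusted p under 0.05 was not counted. From 150 d to 230 d the number was 1 in the text, beside 2.03% of all probe sets. It was 2 with equal array medians (2.03%), 3 with an offset of 16 (2.67%) and 0 without the filter (0.496%). It was 2 with a stricter filter (4.02%), 3 with trend and robust options (3.71%) and 4 at an adjusted p of 0.05 (6.71%). With only the 6 arrays it was 0 (0%), and with the moderated F-statistic 7 (10.3%). With 1 array left out it was 0 to 1 (0.868% to 1.68%). From 80 d to 100 d the number was 0 in the text. It was 1 with an offset of 16 (0.175% of all probe sets), 1 with only the 6 arrays (0.0125%) and 2 with the moderated F-statistic (5.23%). From 100 d to 120 d, also 0, it was 4 with the moderated F-statistic (7.03%). With 1 array left out both stayed at 0. The causes were not tested, except that fits on 6 arrays have fewer samples.

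FST and the brighter ACVR1 probe set lost their call across birth only with the 6 arrays. The brighter MSTN probe set also lost it without the filter (adjusted p = 0.014). The dimmer MSTN probe set gained a call with scaling to the hybridisation controls, with trend and robust options and at 0.05, and INHBA with the first and the last of these.

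The replicate numbers do not pair the animals, since the paper states that each stage had its own animals. Of 12 correlations between same-numbered arrays of adjacent stages 3 were over 0.1 (−0.04 to 0.21), all between fetal stages. Differently numbered arrays were not compared, so these values cannot show whether arrays of the same number shared a batch. With the replicate number as a block, 3 probe sets of the 10 genes were called from 120 d to 150 d, and 1702 probe sets in all, beside 1789 without it; the calls of the dimmer ACVR1 probe set (adjusted p = 0.012) and CRIM1 (adjusted p = 0.013) were lost, while the other called results kept theirs. Signals under about 50 set the limit for INHBA, ACVR2B, the second ID1 probe set and BMPR1B at 230 d.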

Other observations

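SOSTDC1, which encodes a secreted BMP antagonist, stood out at a single fetal stage, and it was singled out after its values were seen. Its signal was 148.7, 149.8 and 153.6 at 100 d, but 14.7, 13.4 and 17.8 at 80 d and 1.7, 42.0 and 53.3 at 120 d, and no postnatal array exceeded 4.7. The 100 d arrays did not overlap those of any other stage, yet neither step was called (80 d to 100 d, log2 difference 3.31, SE 1.00, adjusted p = 0.32; 100 d to 120 d, −3.27, SE 1.00, adjusted p = 0.35). The 80 d values and the postnatal values were under the signal minimum, so no fold is given.

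CDKN1A, a cell cycle inhibitor induced by TGF-beta, was also singled out after its values were seen, and none of its steps passed the test. It read 1307.1, 1296.2 and 1324.6 at 80 d, 753.8, 860.7 and 842.2 at 100 d, and 543.5, 193.8 and 219.3 at 120 d. It then read 409.7, 1658.0 and 853.1 at 150 d and 262.0, 164.4 and 153.5 at 230 d. The log2 change was −2.20 (SE 0.46, adjusted p = 0.021) from 80 d to 120 d, 1.55 (SE 0.46, adjusted p = 0.030) from 120 d to 150 d and −2.15 (SE 0.46, adjusted p = 0.017) from 150 d to 230 d. The 150 d and 120 d arrays overlapped. CCN2, a matrix-associated TGF-beta target, had a log2 change of 1.16 (SE 0.35, adjusted p = 0.031) from 120 d to 150 d, with all 3 newborn arrays above the 120 d arrays.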
